A study of Mus musculus with 1 sample.

Results

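TCA cycle and fatty acid oxidation enzymes were followed in parental RAW264.7 cells, a mouse macrophage-like line, on 1 one-colour array. The rule gave 41 gene symbols, which are 40 genes because Irg1 is an older symbol of Acod1. They were chosen by name, though with earlier results of these data known. The array has named probes for 39 of these 40 genes, of 19321 genes named in all, and Cpt1b was not analysed here. The genes fall into 14 of the TCA cycle, 8 of pyruvate entry, 2 that use or divert citrate, and 16 of mitochondrial beta-oxidation, of which 15 were measured. The study set parental cells, grown in serum-containing medium and not mutagenised, against lines treated with the mutagen ENU and sorted for loss of peroxiredoxin uptake. Mutant arrays were not analysed here, so every value below describes the parental line, with no replicate and no p-value.

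The TCA cycle of the mitochondrial matrix burns acetyl-CoA to carbon dioxide and loads electrons onto carriers for the respiratory chain. Pyruvate enters through the pyruvate dehydrogenase complex, which kinases switch off by phosphorylation, or through pyruvate carboxylase. Beta-oxidation cuts fatty acids into acetyl-CoA after a carnitine shuttle has carried them into the matrix. In macrophages the balance of these routes is known to shift on activation, when cells stimulated by bacterial products divert a cycle intermediate, cis-aconitate, into itaconate.

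Signals are spot median intensities in arbitrary units, with no background subtracted, and 2 limits from other spots of the same array place them. The blank limit, 22.98, is the mean plus 2 SD of the blank spots. The stricter one, 55.8, is called the receptor limit, and 95% of the 1221 probes of olfactory, vomeronasal and taste receptors, families with little known role in macrophages, read at or under it. Of all named genes, 72.8% were over the blank limit and 42.7% also over the stricter one. No blank passed the receptor limit, although 7.13% of them passed the blank limit. Of the 1221 receptor probes, 37.0% passed the blank limit. Replicate spots of each of 2 positive controls, 24 spots per control, scattered with a coefficient of variation of 4.98% and 5.37%, and the 96 negative control spots with 7.50%. These figures cover spot-to-spot error on this array only. Signal also depends on the probe, so a gene is set against the limits and not against another gene. All 8 macrophage markers were over the blank limit and 7 also over the receptor limit. Among these 7 were Spi1, the myeloid factor PU.1, at 858 and Csf1r, the CSF-1 receptor, at 642. Mertk lay between the limits at 23.3, and was under the blank limit of 23.7 that results when no blanks are trimmed. Of 32 measured markers of muscle, liver, fat and lymphocytes, 15 were over the blank limit, 2 of them over the receptor limit as well. These 2 were the liver marker Fgb, at 176, and the fat marker Cidec, at 62.4.

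Nearly all of the measured genes of these routes lay over both limits, though fewer stood well over the background around their own spots. Of 39, 38 passed the blank limit, which is 97.4% beside the 72.8% of all named genes, and 36 passed the receptor limit, which is 92.3% beside 42.7%. The median over the 39 was 689, and that over all named genes was 40.1. When a signal of more than 2 times the local background was also asked for, 24 of 39, or 61.5%, remained, beside 32.2% of all named genes. The exceptions to the receptor limit all lie at pyruvate entry: Pdk4 and Pcx fell between the limits and Pdk2 was not over the blank limit. All 14 TCA cycle genes and all 15 measured beta-oxidation genes passed both limits. The group medians were 1847 for the TCA cycle, 574 for beta-oxidation and 304 for pyruvate entry, and the part of probe efficiency in these differences was not tested. Pyruvate entry mixes enzyme parts with the kinases that restrain them. The 4 pyruvate dehydrogenase subunits, counting Dld from the TCA cycle group, had a median of 899, and the 4 kinases 155.

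**Figure D1:**
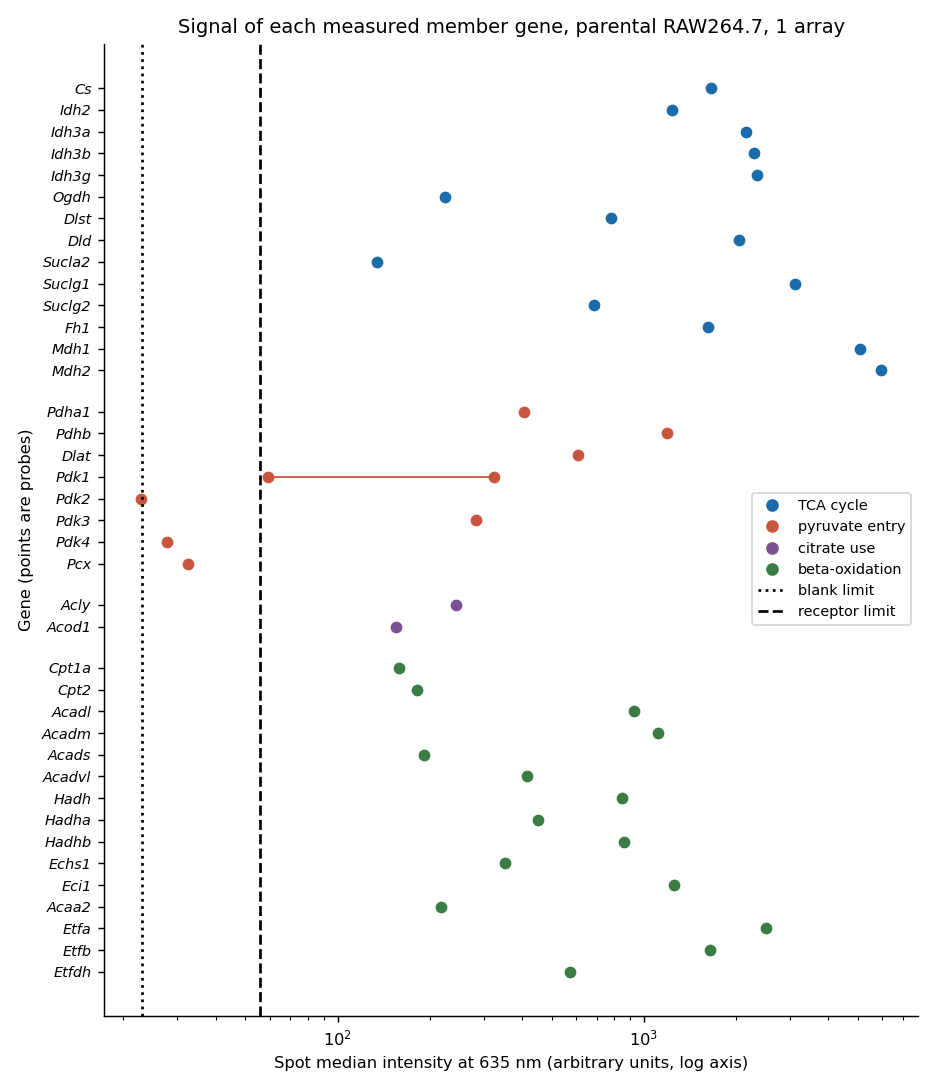
Signal of every probe of the 39 measured genes on a log axis in arbitrary units, one row per gene, coloured by group; both Pdk1 probes are joined by a line. The dotted line is the blank limit and the dashed line the receptor limit, and Pdk2, Pdk4 and Pcx are the genes left of the dashed line.

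In the TCA cycle, signals spread from 134 to 5958. Citrate synthase, Cs, which joins acetyl-CoA to oxaloacetate and opens the cycle, read 1656, or 72.1 times the blank limit. The NAD-dependent isocitrate dehydrogenase of the matrix is built from the alpha, beta and gamma chains Idh3a, Idh3b and Idh3g. They read 2160, 2292 and 2346, so each chain was over both limits on a probe of its own. The local background was 1438 at Idh3b and 1328 at Idh3g, ratios of 1.59 and 1.77, so that neither reached 2 times its background. At Idh3a the ratio was 2.14. Idh2, the mitochondrial NADP-dependent isocitrate dehydrogenase, which makes NADPH in place of NADH, read 1232.

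The oxoglutarate dehydrogenase complex takes the next oxidative step, and its 3 catalytic parts all passed both limits. Ogdh, the decarboxylating E1 part, read 223, or 9.72 times the blank limit. Dlst, the succinyl-transferring E2 core, read 778. Dld, the lipoamide dehydrogenase that this complex shares with pyruvate dehydrogenase, read 2038. Ogdhl, a relative of Ogdh known best from brain, was not over the blank limit at 22.3.

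Succinyl-CoA ligase has a common alpha chain and 2 alternative beta chains that decide whether ATP or GTP is made. The common chain Suclg1 read 3121. Suclg2, the beta chain of the GTP-forming enzyme, read 689, and Sucla2, that of the ATP-forming enzyme, read 134, or 5.85 times the blank limit and 2.41 times the receptor limit. Both forms were therefore over both limits, and Sucla2 was the TCA gene nearest to the receptor limit. Raising that limit to the 99th percentile of the receptor probes, 146, left Sucla2 under it.

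The genes of the last steps also read over both limits, though not all stood well over their local background. Fumarase, Fh1, read 1616 over a local background of 1449 beside its spot, so it exceeded that background by a factor of 1.12. Mdh2, the malate dehydrogenase of the matrix, read 5958. Mdh1, its cytosolic counterpart in the malate-aspartate shuttle that moves reducing power between compartments, read 5071. Succinate dehydrogenase, which links the cycle to the respiratory chain as complex II, is not among the 40 genes, and its subunits Sdha, Sdhb, Sdhc and Sdhd read 2181, 2307, 1960 and 5856. The Sdhb reading did not exceed its local background, 2328, and this gene was over neither limit when local background was subtracted.

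At pyruvate entry the catalytic parts passed both limits, while the kinases that restrain them split. Pdha1 and Pdhb, the alpha and beta chains of the E1 enzyme that decarboxylates pyruvate, read 406 and 1188. Dlat, the E2 core that passes the acetyl group to coenzyme A, read 611. The local background was 774 at Pdhb and 388 at Dlat, ratios of 1.54 and 1.57, so that neither reached 2 times its background. Asking for that as well left 2 of the 8 pyruvate entry genes, Pdha1 and Pdk1, where 5 had passed the receptor limit. Pdhx, which anchors Dld to that core and is not among the 40 genes, read 402. The mitochondrial pyruvate carrier chain Mpc1, also outside the 40, read 1201 on 1 probe and 30.4 on its other, on either side of the receptor limit.

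Of the 4 pyruvate dehydrogenase kinases, Pdk1 and Pdk3 passed both limits. Pdk1, known as a target of the hypoxia factor HIF-1, read 325 and 59.3 on its 2 probes. The lower reading was 1.06 times the receptor limit, a margin smaller than the 7.50% scatter of the negative control spots. Pdk3 read 283 over a local background of 239, a ratio of 1.18. Pdk4, which is known to rise with fasting and fatty acid use in muscle and liver, read 27.7, or 1.20 times the blank limit and 0.496 times the receptor limit. Pdk2, the kinase found in most tissues, read 22.9, or 0.995 times the blank limit. That gap is smaller than the scatter of the negative control spots, and with a limit set from those controls, 22.6, Pdk2 lay over it. A low reading can come from a weak probe as well as a scarce transcript, and Pdk2 and Pdk4 rest on 1 probe each.

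The 4 kinases are paralogs on separate chromosomes, and their promoters are shown because the split runs through a gene family whose start regions differ in CpG content. Each sequence is the 250 bases before the most upstream RefSeq start in GRCm38.p6, 5′ to 3′ on the gene's strand, with CpG dinucleotides in capitals. Pdk1 (chr2:71872974-71873223, plus strand) holds 19 CpGs, Pdk3 (chrX:93832151-93832400, minus strand) 29, Pdk2 (chr11:95041372-95041621, minus strand) 19 and Pdk4 (chr6:5496279-5496528, minus strand) 6.
Pdk1: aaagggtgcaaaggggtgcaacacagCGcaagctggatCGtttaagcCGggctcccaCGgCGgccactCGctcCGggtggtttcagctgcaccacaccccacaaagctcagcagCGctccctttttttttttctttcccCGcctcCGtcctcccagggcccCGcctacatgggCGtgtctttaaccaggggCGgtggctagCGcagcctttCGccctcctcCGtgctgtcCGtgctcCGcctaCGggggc
Pdk3: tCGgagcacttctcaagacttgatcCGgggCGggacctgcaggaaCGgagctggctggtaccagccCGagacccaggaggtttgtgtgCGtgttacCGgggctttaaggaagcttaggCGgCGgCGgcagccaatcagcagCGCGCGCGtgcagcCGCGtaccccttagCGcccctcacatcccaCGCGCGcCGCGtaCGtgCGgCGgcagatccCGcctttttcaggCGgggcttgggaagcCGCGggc
Pdk2: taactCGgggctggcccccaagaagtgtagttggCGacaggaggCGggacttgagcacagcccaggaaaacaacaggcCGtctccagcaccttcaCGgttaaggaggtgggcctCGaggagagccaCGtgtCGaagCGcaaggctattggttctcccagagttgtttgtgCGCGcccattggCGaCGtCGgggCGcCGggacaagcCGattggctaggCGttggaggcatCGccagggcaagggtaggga
Pdk4: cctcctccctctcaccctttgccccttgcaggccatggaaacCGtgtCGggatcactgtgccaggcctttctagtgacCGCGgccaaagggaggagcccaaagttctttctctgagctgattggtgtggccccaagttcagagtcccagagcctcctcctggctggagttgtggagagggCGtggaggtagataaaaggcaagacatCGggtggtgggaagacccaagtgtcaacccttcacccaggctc
Pdk4 had the fewest CpGs of the 4, and Pdk2, whose probe was also low, had as many as Pdk1.

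Pyruvate carboxylase, Pcx, which makes oxaloacetate from pyruvate to refill the cycle, read 32.4, or 1.41 times the blank limit and 0.581 times the receptor limit. Its spot exceeded a local background of 29.0 by 3.40, close to the 3.47 that is the median of that difference at the blanks. With local background subtracted, or with normexp correction, Pcx was no longer over the blank limit. Glud1, the glutamate dehydrogenase that feeds oxoglutarate into the cycle, read 1974. The malic enzyme gene Me2, whose product links malate and pyruvate, read 647 over a local background of 452, a ratio of 1.43. Me3, another mitochondrial malic enzyme, was not over the blank limit at 22.4.

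Both genes that take carbon out of the cycle passed both limits. Acly, the cytosolic ATP citrate lyase that turns exported citrate into acetyl-CoA for lipid synthesis and histone acetylation, read 243, and its local background was 176. Acod1, which makes itaconate from cis-aconitate and is known to be strongly induced by lipopolysaccharide, read 155 in these cells, for which the labels name no stimulus, or 6.77 times the blank limit and 2.79 times the receptor limit. Its local background was 46.2. The citrate carrier gene Slc25a1, which exports citrate from mitochondria and is not among the 40, read 502.

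The Acod1 promoter is shown because it held the fewest CpGs of the 37 genes with a RefSeq window, 2 in 250 bases. It was also the only one of the 37 with a TATA box, TATAAA, in capitals here and beginning 28 bases before the start. The window is chr14:103046762-103047011, plus strand, GRCm38.p6.
Acod1: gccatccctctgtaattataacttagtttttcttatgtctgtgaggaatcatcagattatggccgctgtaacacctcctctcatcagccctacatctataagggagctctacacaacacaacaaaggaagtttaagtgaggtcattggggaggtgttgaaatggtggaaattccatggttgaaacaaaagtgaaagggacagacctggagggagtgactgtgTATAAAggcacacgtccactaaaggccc
The windows of the other genes held from 6 CpGs, at Pdk4, to 29, at Pdk3.

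Beta-oxidation starts at the carnitine shuttle. Cpt1a, the outer membrane carnitine palmitoyltransferase that sets the pace of the route, read 159, or 2.85 times the receptor limit. Cpt2, its inner membrane partner, read 182 over a local background of 24.4. Slc25a20, the carrier that exchanges acylcarnitine for carnitine between them and is not among the 40, read 117. Cpt1c, a brain form also outside the 40, lay between the limits at 24.95. Cpt1a, Cpt2 and Slc25a20 thus passed both limits on 1 probe each, with the muscle form Cpt1b unmeasured. Slc25a20 fell under the 99th percentile of the receptor probes, 146, and read 1.78 times its local background.

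The 4 acyl-CoA dehydrogenases, which take the first oxidation for chains of different length, all passed both limits. Acadvl, for very long chains, read 417. Acadl, for long chains, read 924 over a local background of 791. Acadm, for medium chains, read 1111, and Acads, for short chains, read 191. Each chain length was thus covered by an enzyme gene over both limits.

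The trifunctional protein hydrates, oxidises and cleaves long chains in the inner membrane, and its alpha and beta subunits Hadha and Hadhb read 450 and 861. The local background was 256 at Hadha and 434 at Hadhb, ratios of 1.76 and 1.98, so that neither reached 2 times its background. In GRCm38.p6 both genes start 273 bases apart and run in opposite directions, so that 228 of the 250 bases before one start also lie before the other. The window is printed once, on the Hadhb strand (chr5:30155003-30155252, plus strand), because the stretch before the annotated start of 1 subunit is nearly the same as that before the other.
Hadhb: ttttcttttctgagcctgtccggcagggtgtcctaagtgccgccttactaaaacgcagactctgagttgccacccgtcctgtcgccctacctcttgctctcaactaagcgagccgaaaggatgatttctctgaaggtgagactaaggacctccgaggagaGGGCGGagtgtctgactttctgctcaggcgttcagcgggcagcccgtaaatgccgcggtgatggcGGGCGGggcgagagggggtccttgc
Capitals mark its 2 GC boxes, GGGCGG, which begin 90 and 25 bases before the Hadhb start. Both subunits passed both limits.

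Shorter chains use separate matrix enzymes, and these were over both limits as well. Echs1, the short-chain enoyl-CoA hydratase, read 352. Hadh, the hydroxyacyl-CoA dehydrogenase of medium and short chains, read 849 with a local background of 23.8, a ratio of 35.7. Acaa2, the thiolase that releases acetyl-CoA, read 218 over a local background of 112, a ratio of 1.94. Eci1, an isomerase that repositions the double bond of unsaturated fatty acids, read 1249. Decr1, the reductase for polyunsaturated chains and not among the 40, was not over the blank limit at 21.5, on 1 probe.

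Electrons from the acyl-CoA dehydrogenases pass to the electron transfer flavoprotein and then to the ubiquinone pool. Its alpha and beta chains Etfa and Etfb read 2499.5 and 1638, and Etfdh, the dehydrogenase that hands the electrons to ubiquinone, read 574. All 3 passed both limits.

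**Figure D2:**
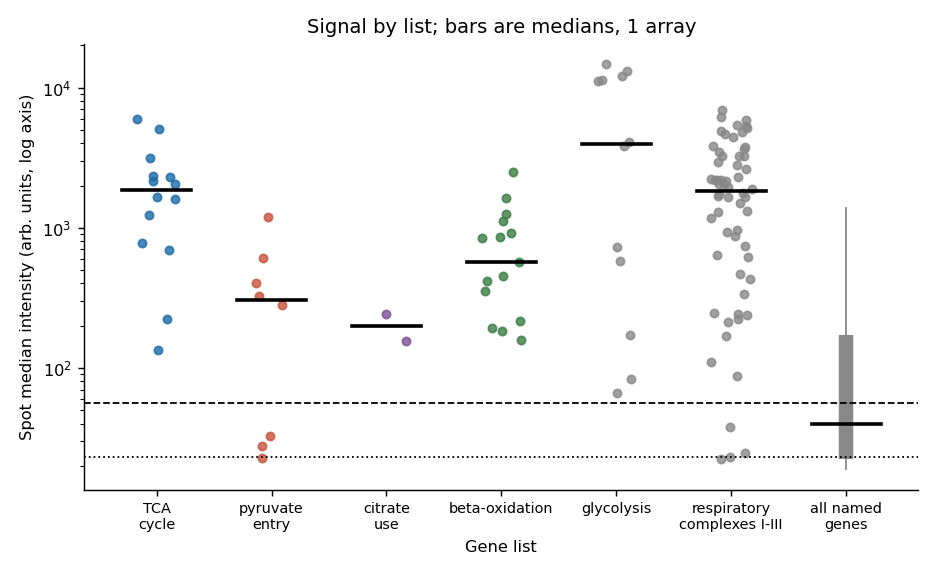
Signal per gene on a log axis in arbitrary units for the 4 groups, for glycolysis and for respiratory complexes I to III; black bars are medians. At the right, the thick bar spans the 25th to 75th percentile of all named genes, the thin line their 5th to 95th percentile, and the dotted and dashed lines are the blank and receptor limits.

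Beside neighbouring routes, the enzymes of the cycle and of beta-oxidation were not alone in passing the limits. All 12 measured glycolysis genes passed the receptor limit, with a median of 3950. Of 60 genes of respiratory complexes I to III and their assembly, 59 were over the blank limit and 56, or 93.3%, over both limits, with a median of 1824. The share over the receptor limit was 92.3% for the 39 genes described here. No test of these differences is possible with 1 array.

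A further list of 58 genes of the same routes and their regulators, of which 53 were measured, passed less completely. Of these, 44, or 83.0%, passed the blank limit and 37, or 69.8%, the receptor limit, and their median was 165. The 9 not over the blank limit were Ogdhl, Me3, Decr1 and 6 more. Pdha2, the testis form of the E1 alpha chain, read 19.5, the lactate dehydrogenase chain Ldhb read 19.1 and the isomerase gene Eci3 read 18.4. Among 9 regulators, 5 passed the receptor limit. Ppara and Pparg, nuclear receptors that switch on fatty acid genes in liver and fat, read 19.5 and 19.1, and both probes of the coactivator Ppargc1a read 18.1 and 21.1. Its relative Ppargc1b read 165 and the orphan receptor Esrra, a known regulator of oxidative genes, read 128. The regulators over the receptor limit were thus Esrra, Ppargc1b, Nrf1, Tfam and Hif1a, while Ppard lay between the limits at 23.5. Nrf1 read 154 over a local background of 123, a ratio of 1.26. Esrra fell under the 99th percentile of the receptor probes, 146.

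The promoters of the measured genes were also described, with motifs chosen when earlier results of these data were known. A RefSeq window was matched for 37 of the 39, with Idh3a and Acaa2 not matched. Their median was 15 CpGs in 250 bases, with quartiles of 11 and 18, against 11 over all 15159 named genes with a window and 16 over the 6618 genes that passed the receptor limit. A GC box, GGGCGG on either strand, was in 23 windows, or 62.2%, against 46.4% of all windows and 58.5% of those of genes over the receptor limit. A CCAAT box, CCAAT on either strand, was in 19, or 51.4%, against 35.8% and 37.1%. TATAAA on either strand was in 1, or 2.70%, against 11.3% and 6.83%. TGCGCA, the core of NRF1 sites, which reads the same on both strands, was in 2, those of Acadm and Etfdh, or 5.41%, against 8.96% and 13.0%. The monomer site of estrogen-related receptors, AAGGTCA on either strand, was in 1, that of Acadm, or 2.70%, against 3.28% and 2.69%. The GC box and NRF1 core contain a CpG each and so overlap with that count, and a match of letters is not a bound site. The Hadha and Hadhb windows share 228 bases and are each counted among the 37.

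**Figure D3:**
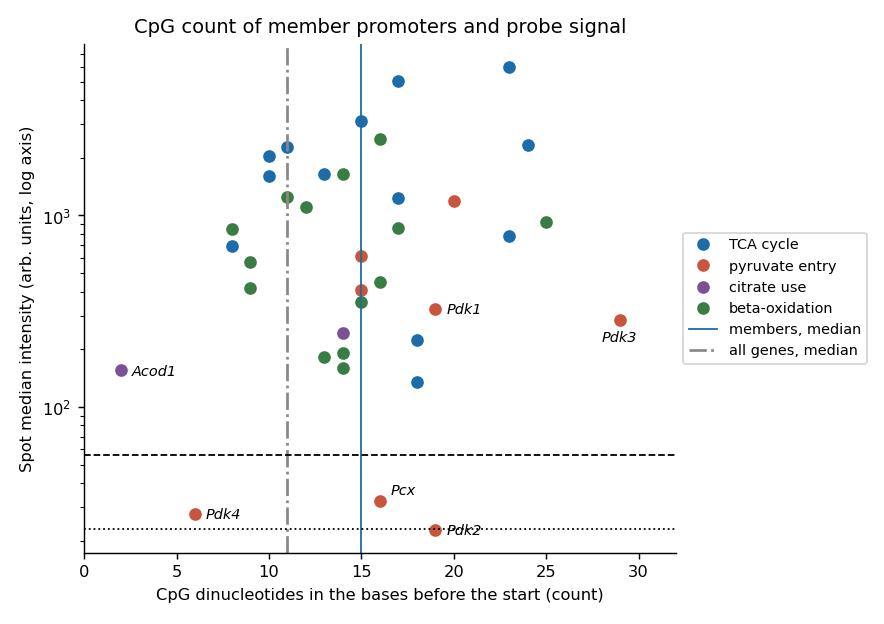
Number of CpGs in the bases before the start against signal in arbitrary units on a log axis, for the 37 genes with a RefSeq window. Vertical lines are the medians of these genes, 15, and of all named genes, 11; Acod1 lies farthest left at 2, and of the 3 genes under the dashed receptor limit, Pdk4 has 6, Pcx 16 and Pdk2 19.

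Local background differed widely between the spots. It ran from 18.1 to 2232 over the 40 probes of these genes, with a median of 189. The ratio of signal to local background had a median of 2.81 and passed 2 at 24 of 40 probes, or 60.0%, against 33.4% of all named probes. Dld had the highest ratio, 46.2, over a background of 44.1. Suclg1, at 1.40, Acadl, at 1.17, and Fh1, at 1.12, had high readings over backgrounds nearly as high. The source of the background at these spots was not tested, and their place over both limits held when it was subtracted.

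**Figure D4:**
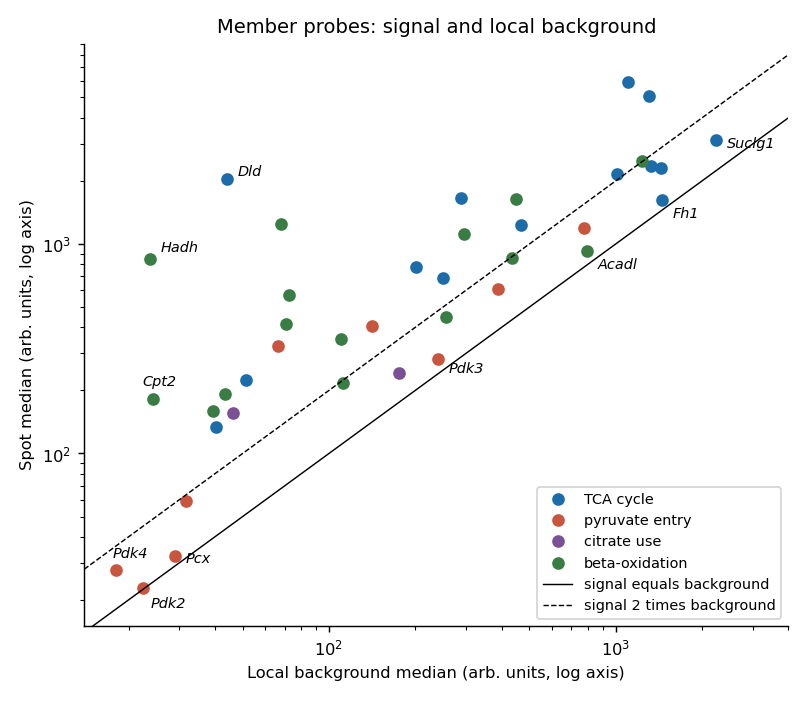
Signal against local background for the 40 probes, both in arbitrary units on log axes, coloured by group. Probes above the dashed line read more than 2 times their background; Dld, Hadh and Cpt2 lie far above it, while Fh1, Acadl and Pdk3 lie near the solid line of equality.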

How the data were processed

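Per the labels' protocols, total RNA of parental RAW264.7 cells was amplified, coupled to Cy5 and hybridised to 1 array. Per the file headers, the deposited scanner output gives the median intensity of each spot and of its local background at 635 nm, combined from 3 gains by a tool not given in the sources used here. All 27456 spots were flagged OK. The authors' deposited table of processed intensity holds 16689 values with a median of 25 and 6784 empty cells. Its values are the spot median minus the blank mean, scaled by about 0.486 (2987 probes with values over 200, SD 0.000364). Its scale and linear form were found from the values, why the median is 25 stays unknown, and it was used as an alternative.

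Blanks (2736 spots) were trimmed by 5% at each end, which left a mean of 20.6 and an SD of 1.17. A gene takes its highest probe. Of 1283 genes with several probes, the median ratio of highest to lowest was 1.89, and among the genes described only Pdk1 has more than 1 probe. Names came from the platform annotation, updated by gene identifier to RefSeq GRCm38.p6: 20690 probes have 1 symbol, 2783 none and 0 several, and 20556 matched. Promoters are the 250 bases before the most upstream start in the RefSeq table of that build. The named genes are all members with all probes, and of the further list those not over the blank limit, those that fill a step without a member, and others picked after their values were seen. Members, lists, limits and motifs were chosen with earlier results of these data known. limma 3.58.1 gave the normexp correction (offset 50), and counts used Python 3.11.15 with pandas 2.3.3. The number of arrays limits the precision, and no p-value is given.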

Additional observations from a re-analysis of the deposited data

Results flagged for a closer look

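The local background column, which the main calls do not use, enters only the corrections and the 2-times requirement. Its values at most probes of these genes were over those of the blanks, and their source was not tested. At 36 of the 40 probes of these genes the local background exceeded the highest local background of any blank spot, 26.1. The median over the blanks was 17.1. The same held for 9008 of all 20690 named probes, or 43.5%. The probes of these genes under that highest value were those of Pdk2, Pdk4, Cpt2 and Hadh.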

How the results depend on the processing

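Over the blank limit lay 37 to 39 of 39 genes in 9 other settings: Pcx was lost with local background subtracted and with normexp, and Pdk2 was gained with the limit from the negative controls. Over the receptor limit lay 35 or 36 in the 5 settings that had been planned, with Sucla2 lost at the 99th percentile of the receptor probes. A setting added after the data were seen, which also asked for more than 2 times the local background, left 24 of 39 genes, or 61.5%, beside 6221 of 19321 named genes, or 32.2%. It left 10 of 14 genes in the TCA cycle and 11 of 15 in beta-oxidation. It left 2 of 8 at pyruvate entry, or 25%, which is under the share of all named genes, where 5 had passed. Of the genes removed, Fh1, Idh3g and Dlat lie in block 1 of the array and Pdk3 in block 2. Acly and Hadhb lie in block 3, Acaa2 in 4, and Suclg1, Acadl and Hadha in 5. Idh3b lies in block 12 and Pdhb in 14. Idh3a and Mdh1 in block 1, Acadvl in 2, Idh2 in 3 and Suclg2 in 4 met the requirement. The part of position on the array in these losses was not tested. Among all named genes, 8258 passed the receptor limit and 5321 passed the 99th percentile of the receptor probes, by construction of a higher limit. No paired analysis was possible because there is 1 sample. The depth of an array has no count, and readings near 23 cannot be told from blanks.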
